A study of Homo sapiens with 28 samples.

Results

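Collagen chain genes are the human genes whose symbol reads COL, a number, A and a number, as in COL1A1. The annotation of the arrays gave 43 of them a probe set (a group of probes read together) assigned to that gene alone, of 19775 genes with such a probe set. COL17A1, a chain of epithelial anchoring structures, had none and was not analysed here. Each gene was read from its probe set of highest mean, out of 112 collagen probe sets. A gene was tested when its signal lay above 89.4, the median of all values, on at least 4 arrays. This held for 27 collagen genes and left 16 below the filter. COL28A1 is among the 16, though another of its probe sets, not used here, lay above the limit on 4 arrays.

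Collagens are matrix proteins in which 3 chains wind into a triple helix. Fibrillar collagens give tissue its tensile strength, and the FACIT collagens sit on the surface of those fibrils. Type IV collagen forms the network of basement membranes, type VI a beaded filament around cells, and the short chain collagens hexagonal lattices. In most tumours fibroblasts and pericytes make much of the fibrillar collagen, and endothelial cells and epithelia contribute to the basement membrane. Carcinoma cells can also transcribe collagen genes.

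The arrays measured RNA of 28 subcutaneous tumours grown from the human kidney cancer lines 786-O and A498 in female athymic nude/beige mice that were 6 to 8 weeks old at injection. The question named in the title of the series is which genes change as tumours become resistant to inhibitors of the VEGF receptor kinases. Once a tumour measured 12 mm across, drug was given by gavage on 6 days of the week. Sorafenib (80 mg/kg) blocks RAF kinases besides the receptors of VEGF and PDGF, and sunitinib (53.6 mg/kg) blocks KIT besides these receptors. Excision was at the pretreatment diameter or at a maximum of 20 mm, with no size stated per tumour. The 786-O sorafenib arm held 5 untreated tumours and 5 resistant ones, the 786-O sunitinib arm 5 and 4, and the A498 arm, treated with sorafenib, 4 and 5. Each arm had its own untreated tumours, and "resistant" is the word of the labels. The mice keep their own fibroblasts, vessels and muscle, so the extracted RNA is a mixture of human tumour and mouse host. The probes are human, mouse RNA can bind to some of them, and which species a collagen signal came from was not tested. In bulk tissue, fewer cells of a type and less RNA per cell cannot be told apart.

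Signals had been scaled to equal trimmed means of 500.06 to 500.07 on all arrays, and within a group Pearson's r across probe sets was 0.949 to 0.971. Markers of renal cell carcinoma were present in every group, with 8 of the 10 listed past the filter and a summed signal of 56642 to 102924 per array. In the 786-O sorafenib arm, untreated replicate 5 (1.03) and resistant replicate 4 (0.67) had the highest 3-prime minus 5-prime difference of the ACTB controls. The other arrays had 0.06 to 0.54, and a high difference can be a sign of RNA degradation. For the GAPDH controls resistant replicate 4 was again the highest (0.225). Untreated replicate 5 (0.058) lay there within the range of the others, -0.161 to 0.123. Titles of the 786-O sorafenib arm carry another prefix than those of all other tumours, and what it stands for is not stated. Differences below are resistant minus untreated on the log2(signal + 16) scale ± standard error, which understates changes of dim genes. P-values are from limma, adjusted over 13808 genes. They measure the spread between these tumours, since the labels do not say that each came from its own mouse. Replicate numbers only name tumours.

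Of the 8 classes, all 3 short chain collagens passed the filter. So did 8 of 11 fibrillar, 4 of 6 basement membrane, 3 of 5 beaded filament and 6 of 10 FACIT chains. The transmembrane class had 1 of 3 past it (COL13A1), the multiplexins 1 of 2 (COL18A1), and the remaining genes 1 of 3 (COL7A1, the anchoring fibril collagen). Signals of the 16 genes below the filter ran from 1.26 to 113 with a median of 23.0, and the cartilage chains COL2A1, COL9A1, COL9A3 and COL11A1 were among them. Above the limit on all 28 arrays were 16 collagen genes, COL1A1, COL1A2, COL3A1, COL4A1, COL4A2 and COL8A1 among them. Some others passed through 1 line: COL5A1, COL5A3 and COL4A4 lay above the limit on 9 of 9 A498 arrays but on 1, 2 and 0 of the 19 arrays of 786-O. COL14A1 did so on 15 arrays of 786-O and 0 of A498, and COL8A2 on 4 and 1.

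In sorafenib-resistant 786-O tumours, 10 of the 27 tested collagen genes fell and 0 rose. That is 37% of them, where 15.2% of all genes tested were called, 5.97% higher and 9.18% lower. The chains with the largest falls were those of fibrils and their surface: COL14A1, COL3A1, COL1A2 and COL1A1, followed by COL4A1 of the basement membrane. The median difference of the 27 genes was -0.48, against -0.05 over all genes. Type VI chains did not pass the test in either direction.

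COL1A1 encodes the alpha 1 chain of type I collagen, the main fibril of skin, bone and scar. Its signal was 647, 1166, 653, 708 and 518 in the untreated and 219, 241, 153, 291 and 201 in the resistant tumours. Untreated replicate 2 was the highest and the groups did not overlap, with means of 738 ± 249 and 221 ± 50.6 (SD, n = 5 and 5). The fall was -1.64 ± 0.34 (limma adjusted p = 0.0016). COL1A2, which encodes the alpha 2 chain of the same trimer, read 1044, 1780, 1359, 1678 and 1530.2 against 523, 351, 318, 524 and 326. No resistant tumour reached the lowest untreated one, and the fall was -1.83 ± 0.27 (limma adjusted p = 3.9e-05).

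COL3A1 encodes the chain of type III collagen, which runs with type I in vessels and soft tissue. Its signal was 6104, 5512, 3273, 4596 and 5187 in untreated and 2034, 986, 1415, 1451 and 749 in resistant tumours. Untreated replicate 3 was the lowest of its group and still above every resistant tumour. The fall was -1.93 ± 0.30 (limma adjusted p = 7.0e-05). COL14A1, a FACIT chain that binds fibrils, read 299, 271, 317, 384 and 385 against 45.0, 106, 93.6, 40.2 and 61.8. Here too the groups were apart, and 3 of the 5 resistant tumours lay under the filter limit of 89.4. The fall of -2.08 ± 0.25 (limma adjusted p = 2.9e-06) was the largest of the family, and part of it lies in the dim range where size is uncertain.

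**Figure D1:**
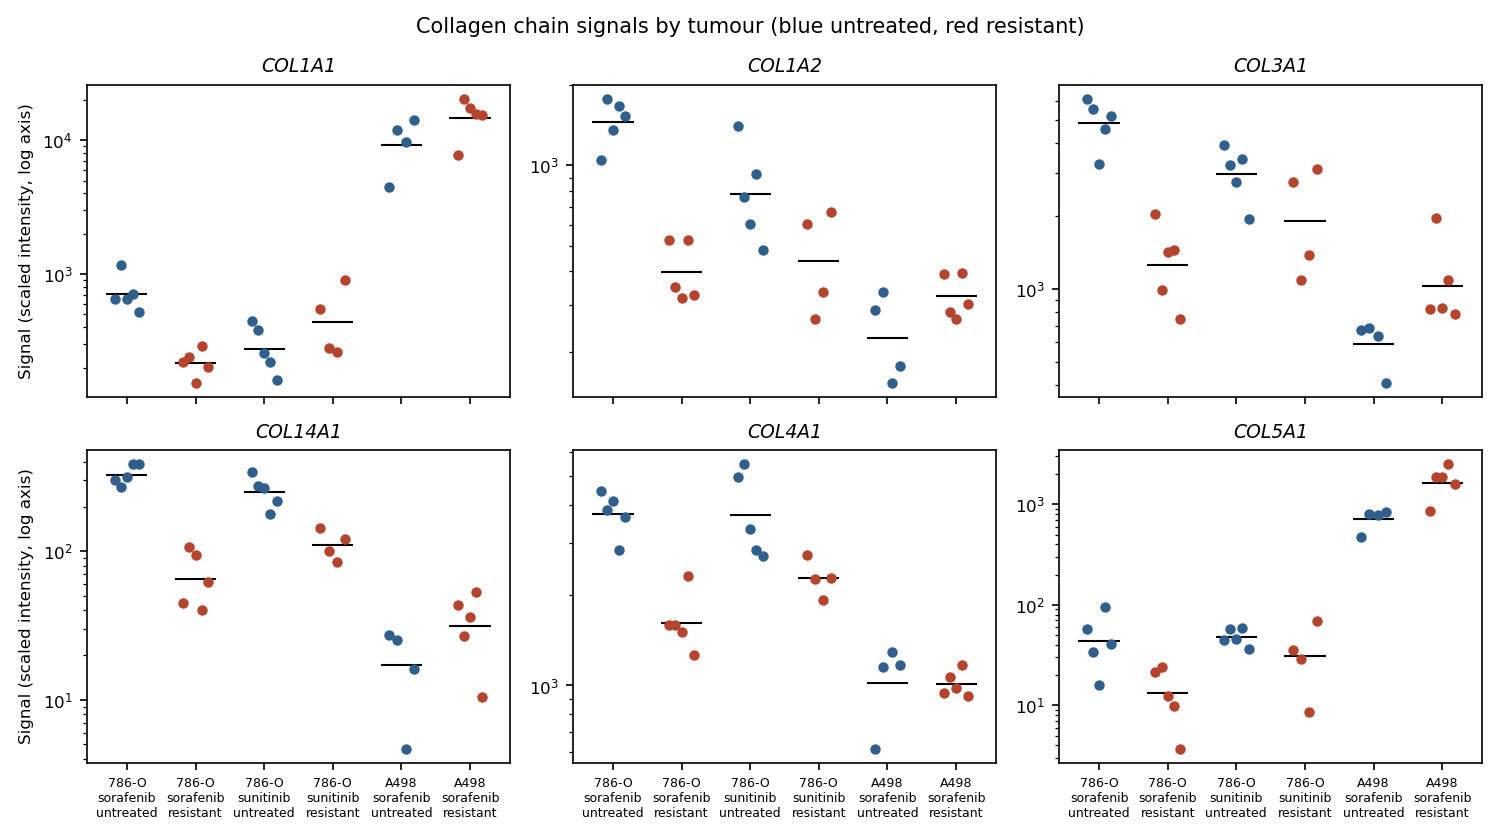
Signal (scaled intensity, log axis) of 6 collagen genes on each of the 28 arrays, in blue for untreated and red for resistant tumours, with a line at the mean of log2(signal + 16) of each group. In the 786-O sorafenib arm the red points of COL1A1, COL1A2, COL3A1, COL14A1 and COL4A1 lie below all blue ones, and in A498 the COL5A1 points reach 2507 where those of 786-O reach at most 96.1.

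COL4A1 and COL4A2 encode the alpha 1 and alpha 2 chains that wind into the common type IV collagen of basement membranes. The genes lie head to head on human chromosome 13, with start sites at 110307157 and 110307284 in GRCh38.p14, and are transcribed away from a short shared interval. That interval is shown because both genes of the pair start at it while 1 passed the test and the other did not. It spans chr13:110307158-110307283, 126 bases of the plus strand taken from RefSeq's GRCh38.p14 promoter entries, with COL4A1 starting to its left and COL4A2 to its right. Capitals mark a CCAAT box (CCAAT) and a GC box (GGGCGG), both found on the strand printed.

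COL4A1-COL4A2 interval: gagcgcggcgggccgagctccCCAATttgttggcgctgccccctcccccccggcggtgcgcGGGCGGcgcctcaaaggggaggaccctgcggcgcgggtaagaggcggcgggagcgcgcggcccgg

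The GC content of these bases was 80.2%, against a median of 60.3% over the 35116 upstream windows of RefSeq's promoter table. Searched on both strands, CCAAT was found in 21.1% of the windows, GGGCGG in 34.6% and TATAAA in 5.87%. TATAAA had 0 matches in the interval. Each window holds the 126 bases upstream of a start site, the length of the interval, and the shares are a description only. In the promoter entries COL4A4 and COL4A3 start 419 bases apart on chromosome 2, and COL4A6 and COL4A5 380 bases apart on the X chromosome. The gene span of COL4A4 reaches 227164488, nearer to the COL4A3 start at 227164624 than its promoter entry at 227164205. A promoter entry was given for 32 collagen genes.

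COL4A1 read 4459, 3841, 4138, 2841 and 3655 in untreated and 1588, 1589, 1511, 2321 and 1260.4 in sorafenib-resistant 786-O tumours. Resistant replicate 4 came closest to the untreated group without entering it, and the fall was -1.20 ± 0.20 (limma adjusted p = 0.00018). COL4A2, chosen for description after its values were seen, read 2533, 2361, 3144, 1712 and 2137 against 1367, 1871, 1729, 2665 and 1484. These groups overlapped, with resistant replicate 4 second only to untreated replicate 3. The difference of -0.39 ± 0.21 (limma adjusted p = 0.23) did not pass. Whether the partner genes differed in their change was not tested. A further probe set of COL4A2 gave -0.80 ± 0.27, and that of COL4A1 -1.58 ± 0.23.

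The other 5 falls were smaller. COL5A1, the alpha 1 chain of type V collagen, on which type I fibrils are seeded, had a difference of -1.02 ± 0.32 (adjusted p = 0.030). All but 1 of the 10 arrays lay under the filter limit (15.8 to 96.1 in untreated, 3.72 to 24.1 in resistant tumours), so its size is uncertain. COL13A1, a transmembrane collagen, changed by -0.75 ± 0.25 (adjusted p = 0.044) and COL4A5, a chain of kidney basement membrane, by -0.63 ± 0.21 (adjusted p = 0.045). COL8A1, a short chain collagen known from vessel walls, changed by -0.62 ± 0.18 (adjusted p = 0.017). COL18A1, the heparan sulfate collagen from which endostatin is cut, changed by -0.54 ± 0.17 (adjusted p = 0.033). Genes without a call included COL10A1 (-0.80 ± 0.37), COL5A2 (-0.48 ± 0.21), COL12A1 (0.15 ± 0.20), COL27A1 (0.00 ± 0.22) and COL7A1 (0.22 ± 0.24). At an unadjusted p under 0.05 there were 13 collagen genes.

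COL14A1, COL3A1, COL1A2, COL1A1 and COL4A1 kept their call without any 1 of the 10 arrays, at adjusted p up to 0.0069, and under every other setting that could be run for them. The count of 10 became 6 without untreated replicate 5, without resistant replicate 4 or without resistant replicate 5. COL8A1 lost its call without untreated replicate 5 or resistant replicate 4 (adjusted p up to 0.053). COL18A1 lost it without untreated replicate 1, 2, 3 or 5 or resistant replicate 4 or 5 (up to 0.097). COL4A5 lost it without untreated replicate 2, 3, 4 or 5 or resistant replicate 2, 4 or 5 (up to 0.13), and COL13A1 without untreated replicate 2, 3, 4 or 5 or resistant replicate 2, 3 or 5 (up to 0.12). COL5A1 lost it without untreated replicate 1 or 4 or resistant replicate 3, 4 or 5 (up to 0.11). Without both arrays of highest ACTB difference, a setting added after the data were seen, 5 genes were called. Centring each array on its median also left 5, and moved the share of rises among all called genes from 39.4% to 62%.

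Of the 10 genes that fell, 8 had another probe set above the filter, and in all 8 every such probe set had the same sign. The 3 others of COL1A1 gave -1.55, -1.55 and -0.65, and those of COL3A1 -2.79 and -1.93. COL1A2 and COL4A5 had no second probe set above the filter. For COL5A1 the others gave -0.18 ± 0.47 and -0.49 ± 0.37, and the fall rests on the probe set used. Probe sets ending in _s_at, _x_at or _a_at can bind more than 1 transcript. Without them COL4A1, COL8A1 and COL14A1 remained called, COL5A1 did not (-0.18, adjusted p = 0.85), and no probe set of COL1A1, COL1A2, COL3A1, COL4A5, COL13A1 or COL18A1 passed the filter.

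**Figure D2:**
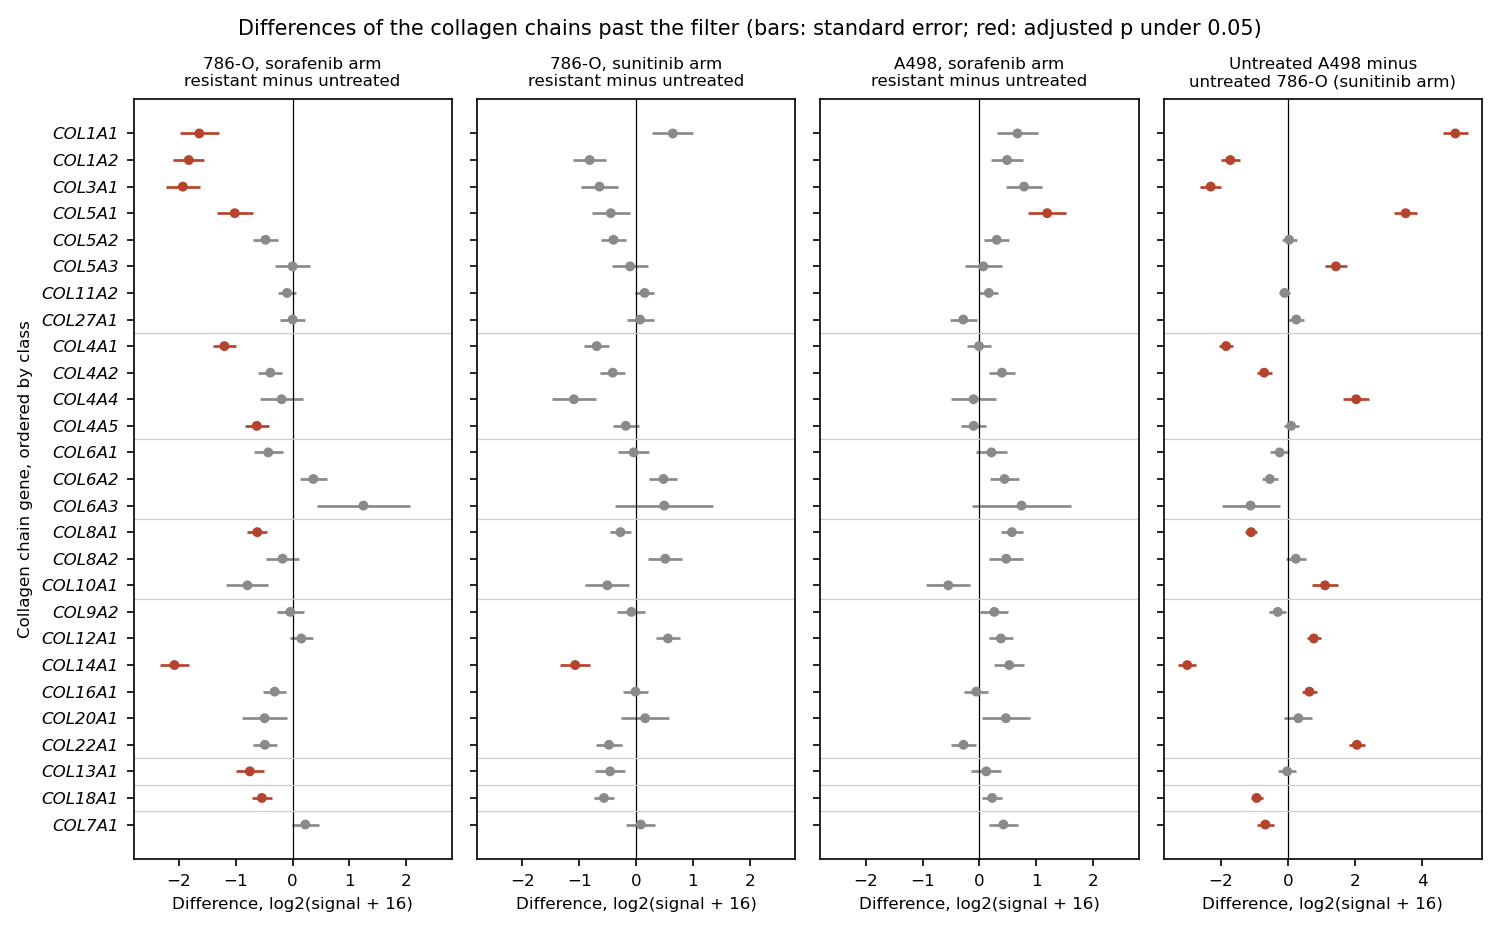
Differences on the log2(signal + 16) scale with standard errors of the 27 tested collagen genes, in rows by class, for resistant minus untreated in each of the 3 arms and for untreated A498 minus untreated 786-O; red marks an adjusted p under 0.05. In the 786-O sorafenib arm 10 genes are red and all lie to the left of 0, while the sunitinib and A498 arms have 1 red gene each.

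Type VI collagen, whose chains form beaded filaments, was chosen for description after its values were seen. COL6A3, the long alpha 3 chain, read 1022, 476, 348, 162 and 202 in untreated and 1075, 1489, 494, 943 and 660.2 in sorafenib-resistant 786-O tumours. The groups overlapped through untreated replicate 1. The difference was 1.25 ± 0.82 (limma adjusted p = 0.34), with COL6A2 at 0.36 ± 0.23 and COL6A1 at -0.43 ± 0.26. For COL6A1, 1 of its 4 other probe sets above the filter had the sign of the one used. In the sunitinib arm resistant replicate 4 stood apart at 3107 for COL6A3, where the others read 223, 242 and 201. That tumour was also the highest of its group for COL6A1 (4576), COL6A2 (6572), COL1A1 (909) and the summed fibroblast and pericyte markers (6004). In A498 the resistant tumours ran from 3.80 (replicate 1) to 1549 (replicate 2) for COL6A3. No type VI chain was called in any of the 3 arms.

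**Figure D3:**
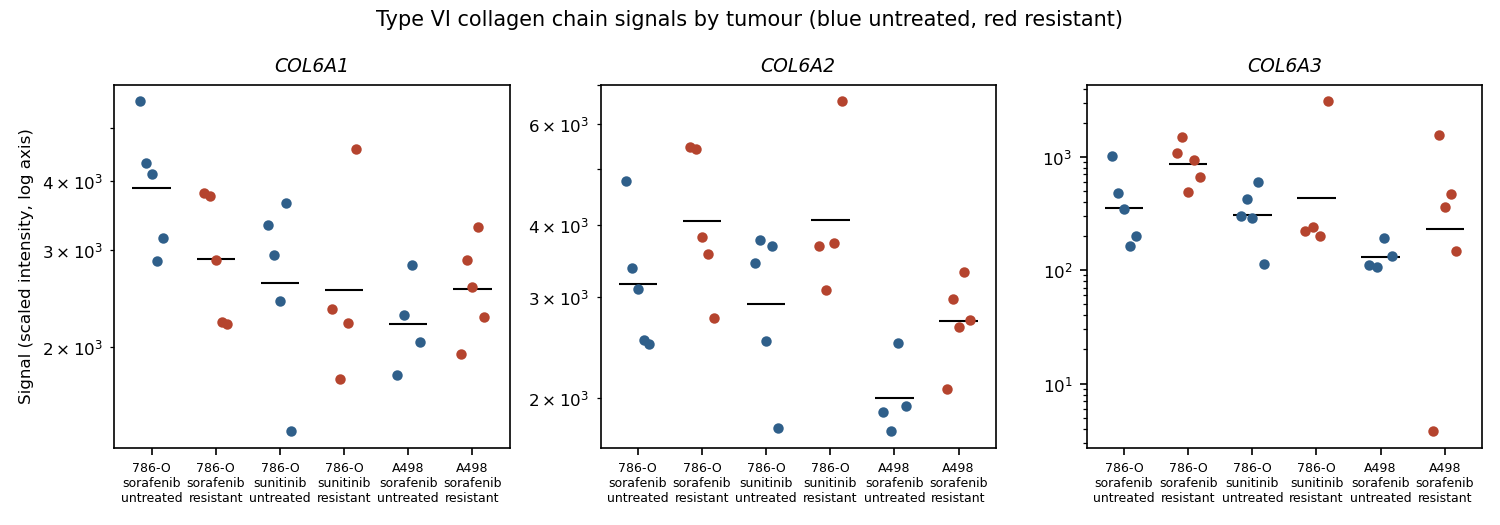
Signal (scaled intensity, log axis) of the 3 tested type VI collagen genes on each array, in blue for untreated and red for resistant tumours, with a line at the mean of log2(signal + 16). Sunitinib-resistant replicate 4 is the top point of its group in all 3 panels, at 3107 for COL6A3.

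In sunitinib-resistant 786-O tumours, COL14A1 fell and 0 collagen genes rose. With 1 of 27 genes called, the share of 3.7% lay near the background of 5.06% (2.22% higher, 2.84% lower) and is no result about the family. COL14A1 read 343, 274, 265, 177 and 217 in untreated and 143, 101, 84.1 and 121 in resistant tumours. The groups did not overlap, and the fall was -1.07 ± 0.27 (limma adjusted p = 0.019). Its call was lost without untreated replicate 1 or resistant replicate 2 or 3 (adjusted p up to 0.080), leaving 0 called. It was also lost with a pseudocount of 1 (adjusted p = 0.11) and with averaged probe sets (0.053). Its second probe set gave -0.78 ± 0.36 (adjusted p = 0.24).

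None of the other chains that fell with sorafenib passed the test here. COL4A1 read 4983, 5477, 3335, 2830.0 and 2705 against 2733, 2268, 1929 and 2279. A single resistant tumour, replicate 1, reached the untreated range, and the difference was -0.69 ± 0.22 (adjusted p = 0.061). COL18A1, at -0.54 with sorafenib, was at -0.57 ± 0.18 here (adjusted p = 0.072). Next to it stood COL1A2 (-0.82 ± 0.29, adjusted p = 0.11) and COL3A1 (-0.64 ± 0.32, adjusted p = 0.28). COL1A1 read 443, 379, 256, 219.9 and 162 against 549, 281, 260.1 and 909. Resistant tumours lay within and above the untreated range, at 0.65 ± 0.36 (adjusted p = 0.35). The median over the 27 genes was -0.18, against -0.01 over all genes, with 7 collagen genes at an unadjusted p under 0.05. The count of calls was 4 without untreated replicate 5, where COL4A1, COL18A1 and COL1A2 passed, and 2 without untreated replicate 3 (COL4A4 added, -1.38) or 4 (COL4A1 added, -0.79). Under median centring, the share of rises among all called genes moved from 43.8% to 58.1%.

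The difference between the sorafenib and the sunitinib change in 786-O was called for 1 collagen gene, where 0.949% of all genes were called. COL1A1 differed by -2.29 ± 0.50 (limma adjusted p = 0.026). The call was lost without sorafenib-arm untreated replicate 2, sunitinib-arm untreated replicate 5 or sunitinib-resistant replicate 1 or 4, at adjusted p up to 0.064, and with the mean of its probe sets (0.092). COL3A1 (-1.29 ± 0.44, adjusted p = 0.16), COL1A2 (-1.01 ± 0.40, adjusted p = 0.23) and COL14A1 (-1.01 ± 0.37, adjusted p = 0.19) did not pass. Of 13 fibroblast and pericyte markers 12 had negative differences here (median -0.81), as did 8 of 8 skeletal muscle markers (median -1.72). In both lists 0 were called. Endothelium had 1 positive and 3 negative markers (median -0.05), and cartilage and bone 2 positive and 1 negative (median 0.37). The part of these markers in the result was not tested. Over all genes the share of positive differences among those called was 46.6%, and 64% after median centring. The arms have their own controls, and these were not alike for every chain. Untreated tumours of the sorafenib arm were higher than those of the sunitinib arm by 1.32 ± 0.34 for COL1A1 (adjusted p = 0.088) and 0.88 ± 0.27 for COL1A2 (adjusted p = 0.15). Limma called 0 of 27 collagen genes between these controls, with 6 at an unadjusted p under 0.05, where 0.275% of all genes were called. With array weights COL1A1 was called (1.47). Among all genes called between the controls the share higher in the sorafenib arm was 76.3%, and 36.4% after median centring.

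In sorafenib-resistant A498 tumours, COL5A1 rose and 0 collagen genes fell. The share of 3.7% lay under the background of 6.34% (2.93% higher, 3.40% lower). COL5A1 read 477, 803, 792 and 842 in untreated and 861, 1867, 1879, 2507 and 1583 in resistant tumours. The groups did not overlap, though resistant replicate 1 was close to the untreated tumours. The rise was 1.19 ± 0.34 (limma adjusted p = 0.033), and its other probe sets gave 1.18 ± 0.50 and 1.22 ± 0.39. The call was lost without untreated replicate 1, 2 or 4 or resistant replicate 2, 3, 4 or 5 (adjusted p up to 0.13), which left 0 called. Without resistant replicate 1 both COL5A1 and COL8A1 (0.78) were called.

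COL8A1 (0.57 ± 0.19, adjusted p = 0.067), COL3A1 (0.78 ± 0.32, adjusted p = 0.15), COL1A1 (0.67 ± 0.36, adjusted p = 0.30) and COL1A2 (0.49 ± 0.29, adjusted p = 0.35) had positive differences that did not pass. COL3A1 read 675, 689.7, 641 and 408 against 828, 1955, 832, 1089 and 784. All resistant tumours lay above all untreated ones for this gene, and replicate 2 was the highest. COL4A1 read 616, 1154, 1295 and 1170.1 against 945, 1068, 979, 1171 and 925, with a difference of -0.01 ± 0.22 (adjusted p = 0.99). COL14A1 lay below the filter limit on all 9 arrays. The median over the 27 genes was 0.30, against 0.03 over all genes, with 3 collagen genes at an unadjusted p under 0.05. Median centring moved the share of rises among all called genes from 46.3% to 17.9%, and the median of the collagen genes to 0.21.

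The sorafenib change differed between the lines for 7 of 27 collagen genes (25.9%), against 5.19% of all genes. In all 7 the A498 change was the more positive. COL14A1 lay below the limit on all A498 arrays and COL5A1 on all but 1 of 786-O, so for these 2 genes 1 of the changes compared is a change between dim values, and they add no support to the count. The largest differences, A498 minus 786-O, were in COL3A1 (2.72 ± 0.44, limma adjusted p = 0.00084), COL14A1 (2.60 ± 0.37, adjusted p = 0.00022), COL1A2 (2.31 ± 0.40, adjusted p = 0.0012) and COL1A1 (2.31 ± 0.50, adjusted p = 0.0086). COL5A1 followed at 2.21 ± 0.46 (adjusted p = 0.0066), COL8A1 at 1.19 ± 0.26 (adjusted p = 0.0082) and COL4A1 at 1.19 ± 0.30 (adjusted p = 0.019). Markers of some other cell types, which tumour cells can also express, moved with this comparison. Of 13 fibroblast and pericyte markers 12 had positive differences (median 0.82), and RGS5 and MFAP5 were called, both more positive in A498. Skeletal muscle markers were positive in 8 of 8 with 0 called. Other lists were split. Endothelium had 2 positive and 2 negative markers (median -0.04), with TIE1 called as more positive in A498. Macrophages had 2 positive and 3 negative (median -0.18), with AIF1 called as more positive. RUNX2 of the cartilage and bone list was called as more negative in A498. The part of these markers in the result was not tested. The 7 collagen calls held without any 1 of the 19 arrays of these arms. COL5A1 lost its call with the probe set outside the _s_at, _x_at and _a_at kinds (1.35, adjusted p = 0.27). The median over the 27 genes was 0.64, against 0.07 over all genes. After median centring it was 0.46 against -0.12, a shift of all genes by more than 0.1, with the same count of 7. The share of positive differences among all called genes moved from 58.2% to 21.2% under that scaling. The 786-O tumours here carry another title prefix than the A498 tumours, so the line and whatever the prefix marks cannot be told apart.

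Between untreated tumours, A498 was compared with the 786-O tumours of the sunitinib arm, whose titles share a prefix with A498. Of the 27 collagen genes 8 were higher and 8 lower in A498. The share of 59.3% is near the background of 58.0% (27.3% higher, 30.6% lower), and is no result about the family. COL4A4, COL5A1, COL5A3 and COL14A1 are 4 of the 16, and they passed the filter wholly or almost wholly through the line in which they were high. The filter thus favoured a difference in them, and their values are given as a description. A498 tumours had more COL1A1, COL5A1, COL22A1, COL4A4, COL5A3, COL10A1, COL12A1 and COL16A1, and less COL14A1, COL3A1, COL4A1, COL1A2, COL8A1, COL18A1, COL4A2 and COL7A1.

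COL1A1 and COL1A2, partners in type I collagen, differed in opposite directions. COL1A1 read 4446, 11976, 9633 and 14059 in untreated A498, against 162 to 443 in untreated 786-O. The lowest A498 tumour, replicate 1, was still far above the highest of 786-O, and the difference was 4.99 ± 0.36 (limma adjusted p = 1.4e-11). COL1A2 read 286, 333, 153 and 177 in A498 against 1411, 758, 603, 925 and 479.7 in 786-O. A498 was lower in every tumour, by -1.72 ± 0.29 (limma adjusted p = 1.4e-05). The probe sets of COL1A1 disagreed. Those above the filter gave 4.99, 3.27 and 2.82, but the fourth gave -0.61 ± 0.34. In the sorafenib arm of 786-O these 4 had all been negative.

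COL5A1 read 44.6, 57.5, 45.3, 58.7 and 36.1 in untreated 786-O and 477, 803, 792 and 842 in A498. The lowest A498 tumour lay far above all of 786-O, at a difference of 3.51 ± 0.34. All 786-O values lay below the filter limit, so the size is uncertain, and the other probe sets gave 4.69 and 3.99. COL22A1, a FACIT collagen of tissue junctions, read 101, 173, 171, 122 and 82.6 in 786-O against 415, 582, 709 and 618 in A498. The groups were apart, by 2.06 ± 0.23 (limma adjusted p = 2.4e-08). COL4A4, a chain of glomerular basement membrane, read 69.1, 82.0, 8.71, 34.7 and 31.6 against 262, 223, 140.4 and 231. It was thus below the limit in every untreated 786-O tumour of this arm and above it in all of A498 (2.04 ± 0.39). Its head-to-head neighbour COL4A3 lay below the filter with the probe set used, at mean log2 values of 5.57 in untreated A498 and 5.74 in 786-O. Another of its probe sets, also below the filter, had 6.66 and 5.03.

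Among the chains lower in A498, COL14A1 differed by -3.00 ± 0.27. It read 4.70 to 27.4 in A498, all below the limit. COL3A1 differed by -2.30 ± 0.32 (limma adjusted p = 8.9e-07) and COL4A1 by -1.84 ± 0.22 (adjusted p = 5.8e-08). COL8A1 followed at -1.10 ± 0.19 (adjusted p = 1.6e-05), COL18A1 at -0.93 ± 0.18 (adjusted p = 9.2e-05) and COL4A2 at -0.71 ± 0.22 (adjusted p = 0.0084). COL7A1 (-0.67 ± 0.26) lost its call without sunitinib-arm untreated replicate 1 or 2 or A498 untreated replicate 1 or 4 (adjusted p up to 0.12). COL10A1 (1.10 ± 0.39) lost it without sunitinib-arm untreated replicate 4 or A498 untreated replicate 3 (up to 0.065), and COL16A1 (0.64 ± 0.21) without A498 untreated replicate 3 (0.057). Of the 16 called genes 12 had another probe set above the filter, which agreed in sign throughout for 9, while COL1A1, COL10A1 and COL12A1 had at least 1 of the opposite sign. Against the 786-O tumours of the sorafenib arm instead, 6 genes were higher and 10 lower.

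**Figure D4:**
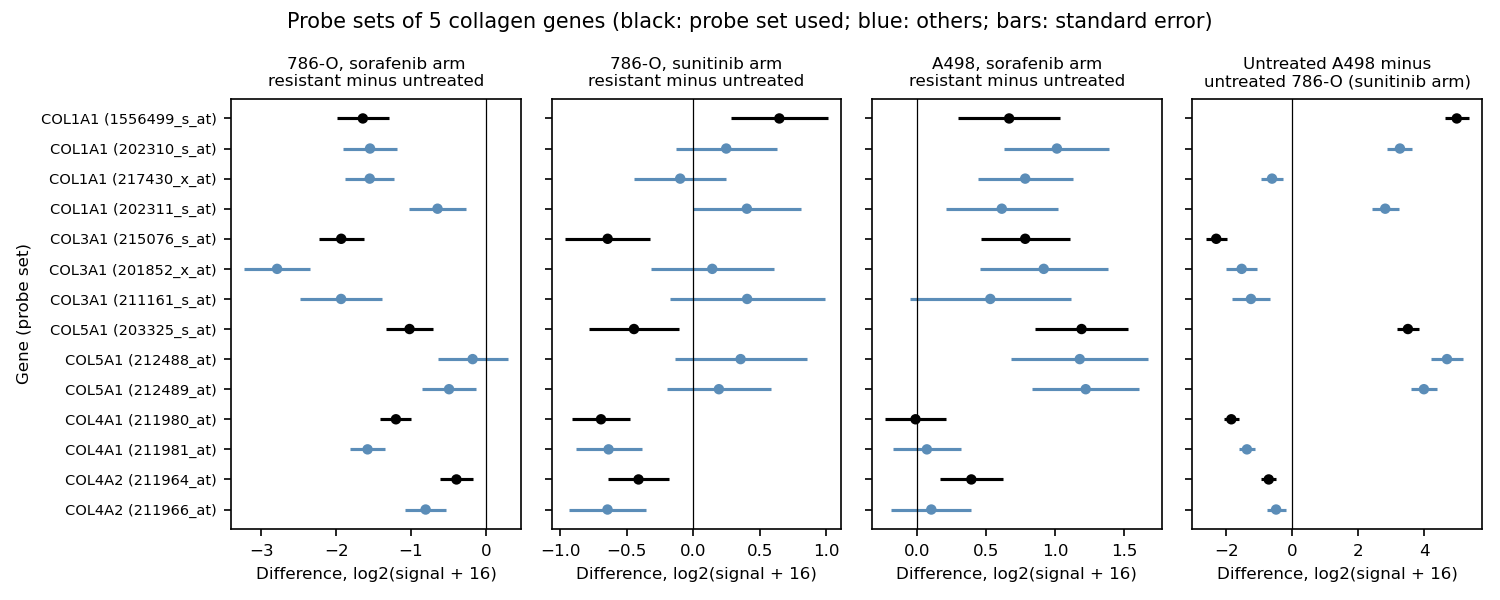
Differences with standard errors on the log2(signal + 16) scale for every probe set above the filter of 5 collagen genes, with the probe set used in black and the others in blue, in the 3 arms and between untreated A498 and 786-O. The 4 COL1A1 probe sets all lie below 0 in the 786-O sorafenib arm, but between the lines 1 of them lies at -0.61 while the others lie between 2.82 and 4.99.

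Markers of other cell types moved with some of these results. Tumour cells can also express genes of these lists, so the lists do not tell host from tumour. A list of 19 fibroblast and pericyte markers without collagens had 13 past the filter, with 3 (DCN, LUM and POSTN) shared with the matrix list below. In the 786-O sorafenib arm 5 of the 13 fell (RGS5, FBLN1, POSTN, DES and MFAP5) and 0 rose, with a median of -0.65, where 9.18% of all genes fell. RGS5, a pericyte marker, fell by 1.38 on the log2 scale (± 0.23) and FBLN1, a fibroblast glycoprotein, by 1.78 (± 0.44). Their summed signal over the 19 genes was 4351 to 5451 in untreated and 2845 to 4032 in resistant tumours, without overlap. CNN1, CSPG4, LUM, NOTCH3 and PDGFRB lay below the limit on all arrays of both groups. Between the untreated 786-O tumours, 10 of the 13 were higher in this arm than in the sunitinib arm (median 0.27) and 3 lower. Limma called 0 of them, with 4 (DCN, DES, MFAP5 and POSTN) at an unadjusted p under 0.05. Skeletal muscle markers were higher in 8 of 8 between these controls (median 0.55), with 0 called.

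In the sunitinib arm 1 of 13 fell (RGS5), where 2.84% of all genes fell, and the sums of 3009 to 4880 and 3594 to 6004 overlapped. In A498 limma called 0 of 13, with 2 (RGS5 and MFAP5, both higher) at an unadjusted p under 0.05. The A498 sums were 2947 to 3256 and 2819 to 3628. Skeletal muscle markers were positive in 7 of 8 with sunitinib (median 0.93) and in 7 of 8 in A498 (median 0.26), with 0 called. In the 786-O sorafenib arm they were negative in 8 of 8 (median -0.89), with 1 called (MYL11, lower). There limma gave 5 an unadjusted p under 0.05. Their sums in that arm were 711 to 3959 in untreated and 542 to 1421 in resistant tumours. Endothelium markers had 4 of 12 past the filter. In that arm 2 of these were positive and 2 negative (median -0.02), with 1 called (TIE1, lower) and sums of 652 to 816 and 455 to 809. CDH5, KDR, VWF and TEK lay below the limit in every group. Macrophage markers had 5 of 12 past it, with sums of 496 to 1046 and 436 to 664 and 1 called (AIF1, lower). The cartilage and bone list moved the other way, with sums of 3438 to 4044 in untreated and 4997 to 6302 in resistant tumours, without overlap, and 1 of its 3 tested markers called (RUNX2, higher). Of the 8 carcinoma markers, CDH6 and PAX2 fell there. The part of these markers in the collagen results was not tested.

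**Figure D5:**
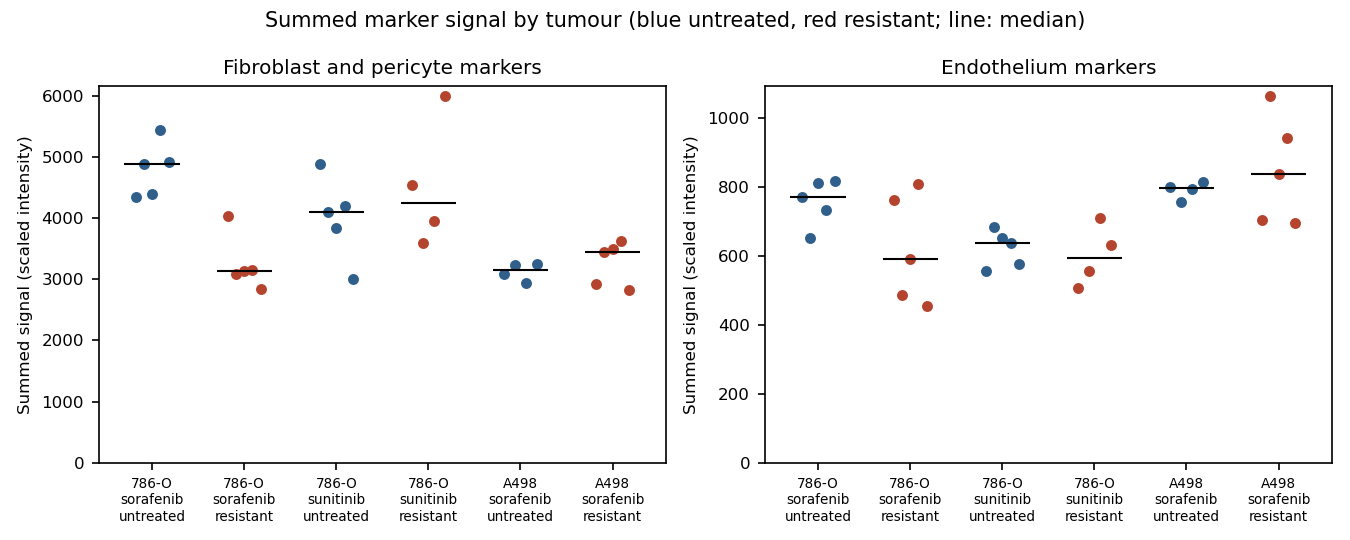
Summed signal (scaled intensity, axis from 0) of the fibroblast and pericyte list (left) and the endothelium list (right) on each array, in blue for untreated and red for resistant tumours, with a line at the median. The fibroblast and pericyte sums of the 786-O sorafenib arm do not overlap (4351 to 5451 against 2845 to 4032), and those of the sunitinib and A498 arms do.

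Other genes of the collagen pathway were counted in 4 lists, to be read against the shares of all genes called (15.2% with sorafenib and 5.06% with sunitinib in 786-O, 6.34% in A498). Of 21 listed genes of collagen folding and modification 19 were tested, and 2 rose and 0 fell with sorafenib in 786-O, 3 and 0 with sunitinib, and 0 and 0 in A498, where limma gave 3 an unadjusted p under 0.05. P3H1, a prolyl 3-hydroxylase, rose in both 786-O arms (0.50 ± 0.14 and 0.49 ± 0.14). PLOD3, a lysyl hydroxylase, rose with sorafenib (0.36 ± 0.10), and P3H4 (0.62 ± 0.16) and P3H1's partner CRTAP (0.35 ± 0.09) with sunitinib. SERPINH1, the collagen chaperone HSP47, had -0.72 ± 0.25 with sorafenib and missed the threshold (limma adjusted p = 0.054).

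Propeptide processing and cross-linking genes had 13 of 15 tested. With sorafenib in 786-O 3 rose and 3 fell, where 5.97% of all genes rose and 9.18% fell. With sunitinib 4 rose and 0 fell, where 2.22% rose and 2.84% fell, and in A498 0 were called by limma, with 2 at an unadjusted p under 0.05. LOX, the lysyl oxidase that starts cross-links, rose in both 786-O arms (0.98 ± 0.22 and 0.82 ± 0.24), as did the transglutaminase TGM2 (1.12 ± 0.15 and 0.53 ± 0.16). PCOLCE2, an enhancer of procollagen cleavage, rose as well (1.13 ± 0.19 and 0.95 ± 0.20). Its relative PCOLCE (-0.87 ± 0.21), the oxidase LOXL1 (-1.67 ± 0.31) and the procollagen protease ADAMTS3 (-0.44 ± 0.14) fell with sorafenib. PCOLCE and ADAMTS3 were named after their values were seen, as was SERPINH1.

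Of 11 collagen receptors 8 were tested, with 1 rise with sorafenib in 786-O (the integrin chain ITGA2, 1.07 ± 0.16), 1 with sunitinib (the endocytic receptor MRC2, 0.89 ± 0.24) and 0 in A498, where limma gave 2 an unadjusted p under 0.05. Collagen-binding matrix genes had 16 of 18 tested, with 2 rises and 2 falls with sorafenib in 786-O, 12 of the 16 differences negative and a median of -0.24. The nidogens NID1 (0.40 ± 0.11) and NID2 (1.12 ± 0.27), which link type IV collagen to laminin, rose with sorafenib in 786-O while COL4A1 fell. THBS1, a matricellular thrombospondin (-2.07 ± 0.20), and POSTN, periostin (-1.27 ± 0.38), fell there. With sunitinib limma called 0 of 16, with 4 at an unadjusted p under 0.05 (SPARC, LAMB1, THBS1 and NID1). In A498 the laminin chain LAMB1 (0.76 ± 0.11) and NID1 (0.48 ± 0.12) rose and THBS1 (-1.17 ± 0.21) fell.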

How the data were processed

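RNA of 28 xenograft tumours had been extracted with Trizol from snap-frozen tissue and read on 1-colour Affymetrix HG-U133 Plus 2.0 arrays, per the labels' protocols. The deposited values are linear intensity values per probe set, scaled by the authors to the same 2% trimmed mean. Both RMA and MAS5 stand in the submitters' processing notes, with no step or version, and the values have the form of MAS5 output. Of 54675 probe sets, 41091 had 1 gene symbol in the platform annotation. Values were used as log2(signal + 16), with genes above the median of all values (log2 6.72) on at least 4 arrays tested (13808 of 19775).

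Using limma 3.58.1 (R 4.3.3), 1 linear model with a mean for each group took in the 28 arrays. It was checked on simulated data. Calls needed a p under 0.05 after Benjamini-Hochberg adjustment. Plots used matplotlib 3.10.9 and Python 3.11.15. Sequences came from RefSeq's GRCh38.p14 table. The members and gene lists were chosen with earlier results of these data known. Values per array are given for collagen genes called in a comparison, up to the 6 of largest difference in each, and up to 3 called genes are named per other list. Alternatives were pseudocounts of 1 and 64, other filters, probe set choices, scalings and variance models, array weights, other control groups and leaving out each array. For arrays their number limits the precision.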

Additional observations from a re-analysis of the deposited data

Results flagged for a closer look

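Over 162 sets of values (27 collagen genes in 6 groups), 14 had an array far from the rest of its group, where chance gives about 1 in 20. In the 786-O sorafenib arm these were untreated replicate 1, high for COL12A1 (295), untreated replicate 5, high for COL8A1 (7324), and resistant replicate 4, high for COL27A1 (2632). In the sunitinib arm untreated replicate 4 was low for COL12A1 (219.5) and resistant replicate 4 high for COL6A3 (3107). Untreated A498 replicate 1 was low for COL4A1 (616), COL5A1 (477) and COL8A2 (25.8), and replicate 4 for COL3A1 (408). Resistant A498 replicate 1 was low for COL1A1 (7788) and COL5A2 (228). Resistant A498 replicate 2 was low for COL4A2 (1461), replicate 3 for COL20A1 (57.9) and replicate 5 for COL22A1 (283).

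The change with treatment differed between groups, by the interaction terms of the limma model, for 8 results. COL1A1 differed between the 786-O arms (-2.29). Between the lines under sorafenib COL3A1 (2.72), COL14A1 (2.60), COL1A2 (2.31), COL1A1 (2.31), COL5A1 (2.21), COL8A1 (1.19) and COL4A1 (1.19) differed.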

How the results depend on the processing

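No count for the 3 arms changed direction under the settings run. Nor did the difference of any collagen gene in a comparison where it was called. Differences without a call were not followed through the settings. Median centring turned the median over all genes from -0.05 to 0.04 (786-O sorafenib), from -0.01 to 0.05 (786-O sunitinib) and from 0.03 to -0.07 (A498). It also turned that median from 0.07 to -0.12 (difference between the lines) and from 0.03 to -0.05 (between the untreated 786-O groups). The larger share of called genes turned with it in all of these but A498. That share also turned for the difference between the 786-O arms, whose median stayed negative. The count of falls in the 786-O sorafenib arm (10) was 3 without probe sets ending in _s_at, _x_at or _a_at, 5 with median centring and 5 without both arrays of highest ACTB difference. In the sunitinib arm (1) it was 2 with a pseudocount of 64, 2 with the filter at the 75th percentile, 3 with a trended robust variance and 0 without those probe sets. With a pseudocount of 1 and with averaged probe sets the count stayed at 1, but COL14A1 was lost and COL4A4 or COL18A1 gained. In A498 (1) it was 0 with a pseudocount of 1, with no filter, without those probe sets, with median centring and with only the arrays of the comparison, and 2 with the stricter filter, the trended variance and array weights. The difference between the 786-O arms (1) was 0 with averaged probe sets and without those probe sets. The difference between the lines (7) was 3 without those probe sets and 6 with the filter at the 75th percentile. It was 10 with averaged probe sets, and 8 with no filter, with only the arrays of the comparison and with the trended variance. Between the untreated 786-O groups (0) the count was 1 with array weights. The causes were not tested, except that leaving out probe sets left fewer collagen genes to test (18 of 27).

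Without any 1 array the counts were 6 to 10 for sorafenib and 0 to 4 for sunitinib in 786-O, 0 to 2 for A498, 15 to 17 between the lines, 0 to 1 for the difference between arms, 7 to 8 for that between lines and 0 between the untreated groups. No paired analysis was possible because the labels number no replicates. Signal over background limits COL5A1 and COL4A4 in 786-O and COL14A1 in A498, which lay below the filter limit on nearly all of those arrays.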
